A study of Harpegnathos saltator with 32 samples.

Results

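Brain transcriptomes of gamergates injected with siRNA against Kr-h1 were compared with those of workers injected with GFP control siRNA in the ant Harpegnathos saltator. A gamergate is a worker-born female that becomes reproductive after ritual duels with nestmates, and the day 10 gamergates of the study carry the word dueler in their label, while the workers are labelled day 10 worker. The comparison holds 7 of the 32 libraries of the study, namely the 4 gamergate Kr-h1 and the 3 worker GFP libraries of round 3, the experiment in which both castes were read on the same sequencing run (200626). All ants of the study had been injected in the head with siRNA and a transfection reagent, so the workers of this comparison were injected controls and not untouched animals. Their central brains were dissected 10 hours later, and each library came from polyadenylated RNA of 1 brain. The 5 gamergate GFP and 3 worker Kr-h1 libraries of the same round are given beside them. The comparison differs in caste and in siRNA at once, and it asks whether gamergate brains given Kr-h1 siRNA came to resemble control workers and which caste difference stayed.

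Kr-h1 (Krüppel homolog 1) is a zinc finger transcription factor whose transcription is switched on by juvenile hormone and, in several insects, by ecdysone. In Harpegnathos, workers are known for high juvenile hormone and gamergates for high ecdysone, and the castes differ in hunting, egg laying and the neuropeptides of the brain. Levels below are FPKM, fragments per kilobase of transcript scaled for depth by the authors. Differences are limma estimates on the log2(FPKM + 0.5) scale with their standard errors, and calls rest on p-values adjusted by the method of Benjamini and Hochberg over all 9427 genes tested, with a threshold of 0.05.

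Reads recovered from the FPKM steps came to between 4.75 M and 10.84 M per library, with the lowest in gamergate Kr-h1 replicate 6. That library also listed 11.2% of 268 genes of low level at 0, against 0.373 to 2.99% in the other round 3 libraries. Worker GFP replicate 8 stood apart by its marker genes of other tissues, with a summed level of 213 FPKM over 14 muscle genes, against 119 to 151 FPKM in the gamergate Kr-h1 libraries and 141 and 147 FPKM in the other two worker GFP libraries. Its summed retina markers were at 1040 FPKM, against 194 to 759 FPKM in gamergate Kr-h1 brains. No marker of glia, muscle, retina, fat body, haemocytes or epidermis was at 0 in all 7 libraries, and the neuronal gene nSyb was at 140 FPKM or more in each of them. The very abundant unnamed gene LOC112588745 varied widely between brains, with 36700, 1410, 1920 and 14500 FPKM in gamergate Kr-h1 brains, against 569, 353 and 6190 FPKM in worker GFP brains.

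Kr-h1 itself was still detected in every gamergate Kr-h1 library. It stood at 0.402, 0.627, 0.278 and 0.369 FPKM in gamergate Kr-h1 brains, which are 20, 19, 17 and 18 reads. Gamergate GFP brains had between 0.48 and 0.809 FPKM. Worker GFP brains had 0.611, 0.433 and 0.733 FPKM, which are 43, 22 and 52 reads. The gamergate Kr-h1 and worker GFP groups overlapped through gamergate Kr-h1 replicate 6. Kr-h1 was lower in gamergate Kr-h1 than in gamergate GFP brains by a log2 difference of -0.32, with an exact two-sided permutation p of 0.0476 from the doubled smaller tail and 0.0556 from absolute differences. That permutation ignores the replicate numbers, and in all 4 same-numbered pairs of gamergate libraries the Kr-h1 library had the lower value. With any 1 library other than gamergate Kr-h1 replicate 6 left out, the doubled p lay above 0.05 and reached 0.107. Against worker GFP the log2 difference was -0.25, with an exact permutation p of 0.171, where 35 splits allow no p under 0.0571, so this test could not have passed the threshold. The reads found in every library go against calling these brains free of Kr-h1.

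Few genes separated gamergate Kr-h1 from worker GFP brains once all genes were taken into account. Of the 9427 genes tested, 23 (0.244%) were called, 13 (0.138%) higher and 10 (0.106%) lower in gamergate Kr-h1 brains, and in each of the 23 the groups did not overlap, as in 1121 genes (11.9%) of all tested, 551 higher (5.84%) and 570 lower (6.05%). At an unadjusted p under 0.05, 1317 genes (14%) differed. Beside this, gamergate GFP against the same worker GFP brains gave 56 calls (0.594%), 37 higher (0.392%) and 19 lower (0.202%). The strongest call was a neuropeptide gene, and the others described below by symbol include genes of synaptic release, ion transport, RNA 3′ end formation, light reception, cuticle, proline synthesis and fatty acid breakdown. The count depends on single libraries: it was 1 without worker GFP replicate 7 or gamergate Kr-h1 replicate 5, 2 without gamergate Kr-h1 replicate 6, 3 without worker GFP replicate 8, 4 without gamergate Kr-h1 replicate 7 and 7 without worker GFP replicate 6, and 39 without gamergate Kr-h1 replicate 8. With the replicate number as a block it was 48, of which 19 were among the 23. Lost were CPR1, LOC105187521, LOC105189588 and LOC109504226, at adjusted p of 0.0648, 0.0665, 0.0535 and 0.0545. With voom on recovered reads, 6 genes were called higher and 14 lower, in place of 13 and 10. That fit tested 9232 genes, as 195 had no recovered reads and could not be called. Of all its genes, 4120 lay above 0 and 5112 below.

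CCHa1, which encodes a CCHamide neuropeptide known from flies for roles in feeding and arousal, was the gene with the smallest p. It stood at 9.81, 10.3, 8.37 and 7.61 FPKM in gamergate Kr-h1 brains, against 3.83, 3.44 and 2.37 FPKM in worker GFP brains, and the groups were far from overlapping. The mean was 2.81 times that of worker GFP brains, with a log2 difference of 1.37 ± 0.16 (SE) and an adjusted p of 0.00696. The castes did not overlap with either siRNA over the whole round, with 5.87 to 10.3 FPKM in all 9 gamergate libraries and 2.37 to 4.7 FPKM in all 6 worker libraries. In the libraries that share none with this comparison, gamergate GFP against worker Kr-h1, it was higher by 0.81 ± 0.16 (adjusted p = 0.0165). It was still called in each of the 15 fits that left out 1 library of the round, whereas the other 9 called genes with a symbol were called in 3 (P5CS) to 10 (Acadvl) of them. Gamergate Kr-h1 against gamergate GFP gave 0.27 ± 0.14 for CCHa1 (adjusted p = 0.342). In the round 2 libraries, where gamergates and workers were on different runs so that caste and run cannot be told apart, it was at 9.18 ± 3.95 FPKM in gamergate Kr-h1 and 8.12 ± 2.75 FPKM in worker GFP brains, with a log2 difference of 0.15 (adjusted p = 0.611). Of the 23 called genes, 14 (60.9%) had the same direction in that round 2 comparison, against 47.2% of all genes tested.

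**Figure D1:**
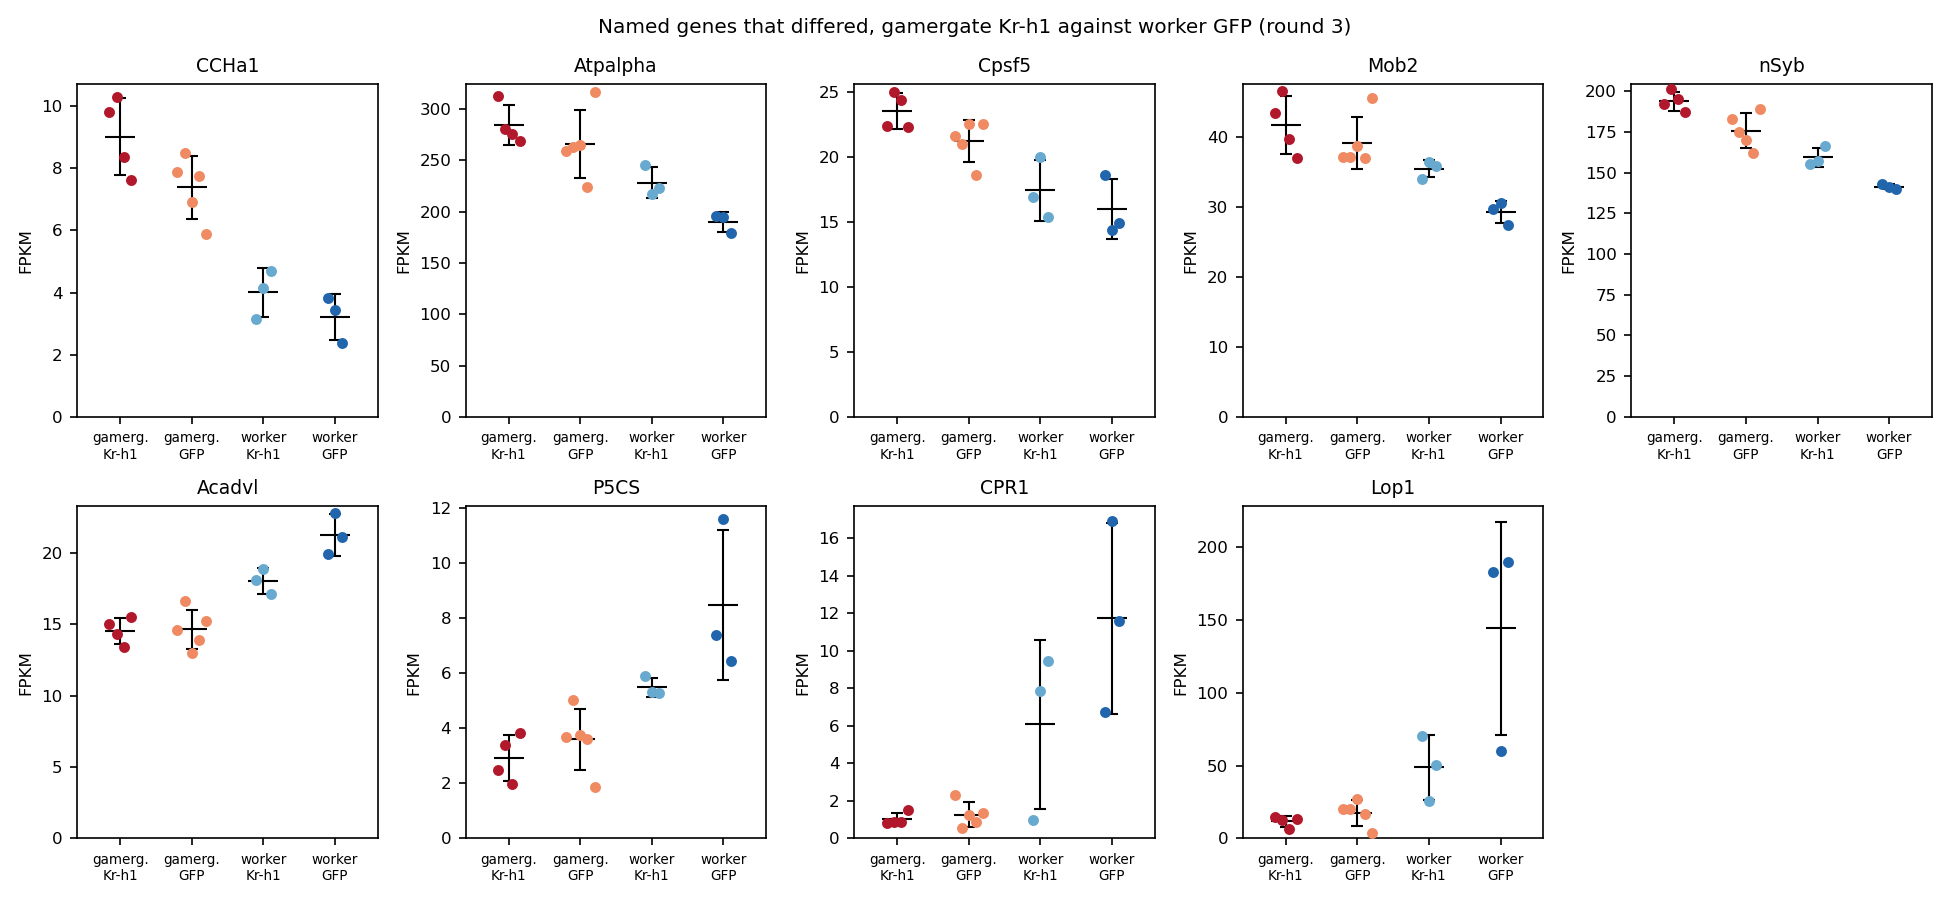
Levels in FPKM of 9 called genes with a symbol in each round 3 library, with 4 gamergate Kr-h1, 5 gamergate GFP, 3 worker Kr-h1 and 3 worker GFP brains from left to right; points are single brains, long ticks group means and bars the SD. The upper row holds genes higher in gamergate Kr-h1 than in worker GFP brains and the lower row genes lower in them. CCHa1 shows no gamergate library under 5.87 FPKM, and for P5CS and Acadvl every gamergate library lies below every worker library.

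The other 4 genes with a symbol that rose in gamergate Kr-h1 brains had smaller log2 differences than CCHa1, of 0.45 to 0.58. nSyb, the neuronal synaptobrevin of synaptic vesicles, was at 192, 201, 195 and 187 FPKM in gamergate Kr-h1 brains, against 143, 141 and 140 FPKM in worker GFP brains (log2 difference 0.45 ± 0.07, adjusted p = 0.0193). Atpalpha, the alpha subunit of the sodium and potassium pump, was at 313, 281, 276 and 269 FPKM in gamergate Kr-h1 brains, against 196, 195 and 179 FPKM in worker GFP brains (0.58 ± 0.10, adjusted p = 0.0384). The means were 1.37 times the worker GFP level for nSyb and 1.5 times for Atpalpha, and neither pair of groups overlapped. Mob2, a co-activator of NDR kinases that acts in growth of the fly neuromuscular junction, averaged 1.43 times its worker GFP level (0.50 ± 0.09, adjusted p = 0.0384). Cpsf5, a subunit of the complex that cuts pre-mRNA before polyadenylation, was at 22.4, 25, 24.4 and 22.3 FPKM in gamergate Kr-h1 brains, against 18.6, 14.4 and 14.9 FPKM in worker GFP brains (0.55 ± 0.10, adjusted p = 0.0427). In gamergate GFP against worker Kr-h1 brains these 4 genes differed by 0.14, 0.21, 0.14 and 0.28 on the log2 scale in the order named here, and none was called. In round 2 the log2 differences of gamergate Kr-h1 against worker GFP were of the opposite sign for nSyb (-0.19, adjusted p = 0.278) and Atpalpha (-0.39, adjusted p = 0.0166), and were 0.21 for Mob2 (adjusted p = 0.146) and 0.76 for Cpsf5 (adjusted p = 0.000265), with caste and run again not to be told apart.

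Lop1, a long-wavelength opsin gene of photoreceptors, had the largest difference of the 23. It was at 14.3, 12.7, 6.08 and 13.3 FPKM in gamergate Kr-h1 brains, against 183, 59.7 and 190 FPKM in worker GFP brains (log2 difference -3.47 ± 0.60, adjusted p = 0.0384). All 9 gamergate libraries of the round lay at or under 27.1 FPKM, and the 6 worker libraries ran from 25.7 to 190 FPKM, so the castes overlapped only at the lowest worker Kr-h1 brain. Rh5, another opsin gene, was at 0.861, 0.673, 1.2 and 1.63 FPKM in gamergate Kr-h1 brains, against 4.55, 2.53 and 12.9 FPKM in worker GFP brains, and missed the threshold (-1.93 ± 0.41, adjusted p = 0.0619). Retina genes were not low as a group. Arr2, an arrestin of photoreceptors, was at 480, 295, 57.9 and 455 FPKM in gamergate Kr-h1 brains, against 173, 53.3 and 613 FPKM in worker GFP brains. Of 20 retina genes tested, 14 had a difference above 0 and Lop1 was the 1 called, and their summed level ranged from 194 to 759 FPKM in gamergate Kr-h1 and from 233 to 1040 FPKM in worker GFP brains. The part of eye tissue in these levels was not tested, and in bulk brains fewer cells of a type and less RNA per cell cannot be told apart.

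CPR1, whose symbol is that of a cuticular protein family, was at 0.836, 0.857, 0.85 and 1.49 FPKM in gamergate Kr-h1 brains, against 6.72, 16.9 and 11.6 FPKM in worker GFP brains (log2 difference -2.95 ± 0.54, adjusted p = 0.0407). Cuticle genes were not low as a group. Of 14 cuticle and chitin genes tested, 8 lay above 0 and 6 below, with a median of 0.18, and CPR1 was the 1 called. P5CS, the enzyme that makes the proline precursor pyrroline carboxylate from glutamate, was at 2.49, 3.41, 1.97 and 3.83 FPKM in gamergate Kr-h1 brains, against 7.41, 11.6 and 6.44 FPKM in worker GFP brains (-1.38 ± 0.26, adjusted p = 0.0427). Acadvl, the mitochondrial acyl-CoA dehydrogenase for very long fatty acids, was at 15, 14.3, 13.4 and 15.5 FPKM in gamergate Kr-h1 brains, against 19.9, 22.8 and 21.1 FPKM in worker GFP brains (-0.53 ± 0.08, adjusted p = 0.0196). For P5CS and Acadvl every gamergate library of the round, with either siRNA, lay below every worker library. CPR1 overlapped through worker Kr-h1 replicate 5, at 0.963 FPKM. In gamergate GFP against worker Kr-h1 the log2 differences were -1.57 for CPR1, -0.60 for P5CS and -0.29 for Acadvl, with adjusted p of 0.0909, 0.168 and 0.0507. In round 2, gamergate Kr-h1 against worker GFP gave -1.49 for CPR1 (adjusted p = 0.0211), -0.05 for P5CS (adjusted p = 0.887) and, of the opposite sign, 0.45 for Acadvl (adjusted p = 0.0094), and for Lop1 it gave -1.56 (adjusted p = 0.0321).

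The 13 called genes without a symbol held 8 higher by log2 differences of 0.45 to 1.31 and 5 lower by -2.48 to -0.63. LOC105182697 was at 0.814, 0.81, 0.924 and 1.23 FPKM in gamergate Kr-h1 brains, against 0.192, 0.145 and 0.242 FPKM in worker GFP brains (1.05 ± 0.17, adjusted p = 0.0196). LOC105189588 was at 1.27, 1.25, 1.94 and 1.65 FPKM in gamergate Kr-h1 brains, against 0.36, 0.416 and 0.178 FPKM in worker GFP brains (1.31 ± 0.24, adjusted p = 0.0415). Both, which lay under the filter level of 1 FPKM in every worker GFP brain, separated the castes over the whole round. LOC105181245 did not: it was at 1.25, 2.79, 0.957 and 1.81 FPKM in gamergate Kr-h1 and 2.41, 1.02 and 2.24 FPKM in worker Kr-h1 brains, against 7.31, 8.83 and 21.3 FPKM in worker GFP brains. LOC105183518 was likewise lower in both Kr-h1 groups than in worker GFP brains. It was at 0.403 to 0.824 FPKM in gamergate Kr-h1, 0.33 to 0.757 FPKM in worker Kr-h1 and 2.19 to 2.7 FPKM in worker GFP brains. These genes were picked for description after their values were seen, and 7 of the 13 are given by these ranges alone.

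A second comparison across caste, gamergate GFP against worker Kr-h1, shares no library with the first, although both come from the same fit and its common spread. There 429 of the 9427 genes (4.55%) were called, 217 higher (2.3%) and 212 lower (2.25%). Of the 23 genes called in gamergate Kr-h1 against worker GFP, 18 (78.3%) had the same direction in it, against 55.7% of all genes tested, with a median log2 difference of 0.28 in that direction, against 0.67 in the comparison that called them. Called in both in the same direction were 4 genes, namely CCHa1, LOC105187521, LOC105182697 and LOC105189588, all higher in gamergates, and 14 genes with the replicate block. LOC105182697 passed the filter of 1 FPKM through gamergates only, so its caste difference follows in part from that choice. LOC105189588 lay under 1 FPKM in all worker GFP brains and above it in all gamergate Kr-h1 brains. LOC105187521 was at 3.24 to 3.63 FPKM in gamergate Kr-h1 and 1.76 to 2.15 FPKM in worker GFP brains, and at 2.46 to 4.11 FPKM in gamergate GFP and 1.98 to 2.42 FPKM in worker Kr-h1 brains. Read the other way, the 217 genes higher in gamergate GFP than in worker Kr-h1 had a median log2 difference of 0.09 in gamergate Kr-h1 against worker GFP, with 149 above 0 and 4 called. The 212 lower genes had a median of -0.07, with 136 below 0 and 0 called by limma, 34 of them lower at an unadjusted p under 0.05. Among all genes tested 49.3% lay above 0, and 639 (6.78%) were lower at an unadjusted p under 0.05.

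**Figure D2:**
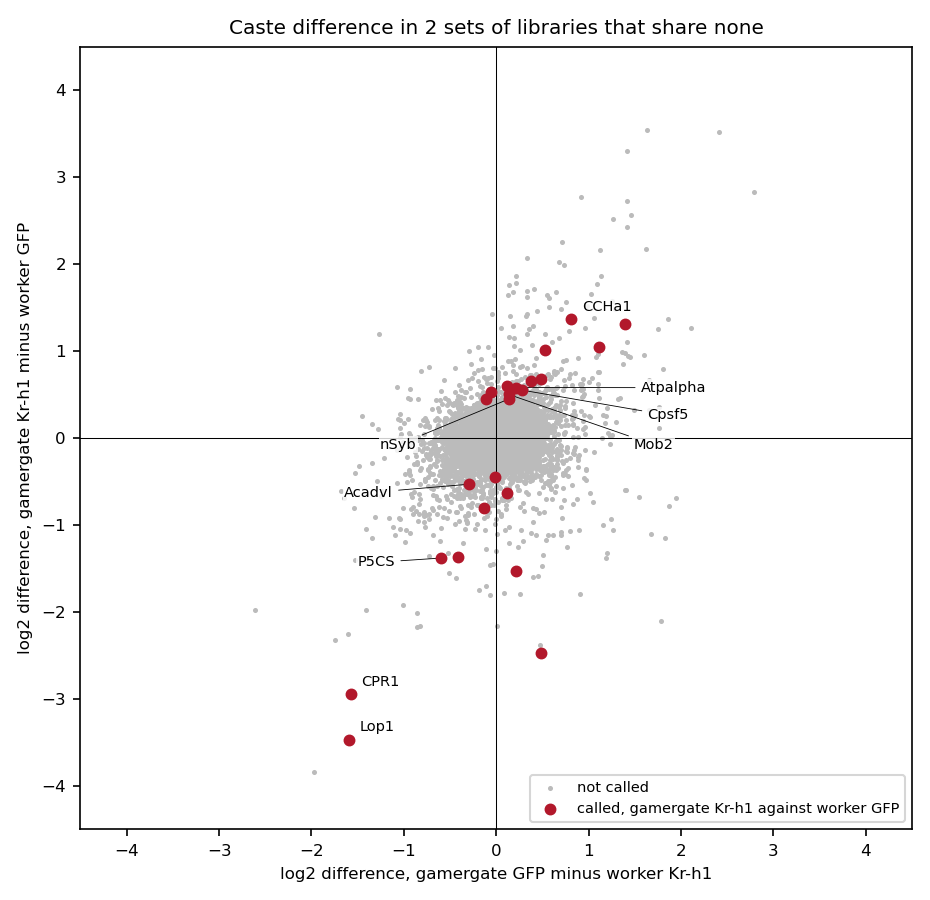
Log2 differences of the 9427 genes tested between gamergate Kr-h1 and worker GFP brains (vertical) and between gamergate GFP and worker Kr-h1 brains (horizontal), which share no library; red points are the 23 genes called on the vertical axis. Of these, 18 have the same sign on both axes, with CCHa1 at the upper right and Lop1 and CPR1 at the lower left.

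Over the transcriptome as a whole, gamergate Kr-h1 brains were not measurably nearer to worker GFP brains than gamergate GFP brains were. The root mean square log2 difference over all genes tested from the worker GFP mean was 0.468, 0.424, 0.379 and 0.376 in gamergate Kr-h1 brains, against 0.361, 0.498, 0.423, 0.43 and 0.424 in gamergate GFP brains. The means were 0.412 ± 0.043 (SD, n = 4) in gamergate Kr-h1 and 0.427 ± 0.049 (SD, n = 5) in gamergate GFP brains, a difference of -0.016 with an exact two-sided permutation p of 0.603. Worker Kr-h1 brains lay at 0.303, 0.427 and 0.449, and each worker GFP brain lay at 0.313, 0.35 or 0.428 from the mean of the other two. The ranges of all 4 groups overlapped. The second principal component of the 15 libraries, which held 14.2% of their variance, was looked at after the data were seen and had every gamergate above every worker: gamergate Kr-h1 brains lay at 6.7, 3.6, 13.8 and -3.9, gamergate GFP brains at 3.2 to 17.9, and the workers of both siRNAs at -18.4 to -6.0. Gamergate Kr-h1 replicate 8 was the gamergate brain nearest to the workers on it. Without gamergate GFP replicate 6 the difference in distance turned to 0.002 (exact permutation p = 0.971).

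On a score from genes chosen for caste in round 2, the gamergate Kr-h1 brains lay within or below the range of the workers. The 200 genes most in favour of gamergates and the 200 most in favour of workers were taken from the GFP controls of round 2. Each round 3 library was given the mean log2 level of the first minus that of the second. The scores were not centred, and the rounded worker GFP mean was 0. Gamergate Kr-h1 brains scored -0.079, -0.022, 0.069 and -0.272, gamergate GFP brains 0.22, 0.702, 0.493, 0.158 and 0.423, worker Kr-h1 brains -0.042, 0.072 and -0.002, and worker GFP brains 0.004, 0.137 and -0.135. Every gamergate Kr-h1 brain lay below every gamergate GFP brain. With worker GFP set to 0 and gamergate GFP to 1, the gamergate Kr-h1 mean stood at -0.20, at -0.45 without worker GFP replicate 8, at -0.32 without gamergate Kr-h1 replicate 7 and at -0.03 without worker GFP replicate 7 or gamergate Kr-h1 replicate 8. The 200 gamergate-high genes had a median log2 difference of -0.06 in gamergate Kr-h1 against worker GFP and of 0.14 in gamergate GFP against worker GFP, while the 200 worker-high genes had medians of 0.03 and -0.25. No p is given for these scores. Caste and run cannot be told apart in round 2, so the lists hold differences of run as well as of caste.

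The genes behind the score differ in length. The gamergate-high genes span a median of 9.5 kb and the worker-high genes 2.14 kb, against 4.33 kb over all genes tested. The correlation across genes of a library's deviation with gene span was -0.208, -0.197, 0.002 and -0.232 in gamergate Kr-h1, 0.011, 0.284, 0.257, 0.032 and 0.309 in gamergate GFP, -0.045, 0.112 and 0.076 in worker Kr-h1 and -0.194, -0.042 and -0.292 in worker GFP brains. With each library's trend over span removed, the mean score relative to worker GFP was -0.07 in gamergate Kr-h1 and 0.32 in gamergate GFP brains. The part of gene length in the score was not tested further.

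**Figure D3:**
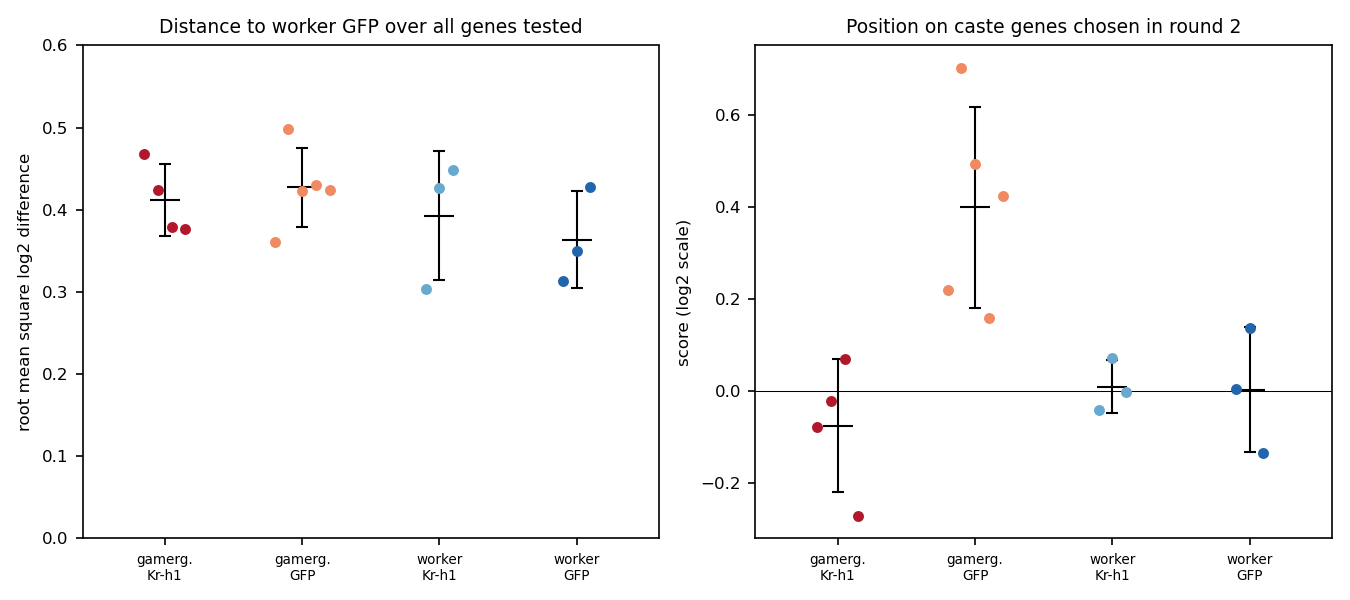
Left, root mean square log2 difference of each round 3 brain from the worker GFP mean over 9427 genes (for worker GFP brains, from the mean of the other two); right, score of each brain on genes chosen by caste in round 2, on the log2 scale. Points are brains, long ticks means and bars the SD, with gamergate Kr-h1 leftmost and worker GFP rightmost. Distances overlap between all groups, whereas the scores of gamergate Kr-h1 brains (-0.272 to 0.069) lie within or below the range of the workers and under those of gamergate GFP brains (0.158 to 0.702).

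Single genes with a caste difference in the other round 3 libraries were then read. Of 36 panel genes tested, 12 were called in gamergate GFP against worker Kr-h1, where 4.55% of all genes were, and 1 of these, CCHa1, in gamergate Kr-h1 against worker GFP; the panel was drawn up with earlier results of these data known. For the other 11, the gamergate Kr-h1 and worker GFP brains overlapped, as for most genes tested (11.9% did not). The 12 genes were chosen by their gamergate GFP values, so a smaller difference in gamergate Kr-h1 brains follows in part from that choice. sev, a receptor tyrosine kinase of the fly eye, was at 5.7, 3.55, 5.49 and 3.45 FPKM in gamergate Kr-h1 brains and at 7.5 FPKM or more in all gamergate GFP brains, against 4.5, 5.82 and 3.86 FPKM in worker GFP brains. Its log2 difference was -0.07 ± 0.22 for gamergate Kr-h1 and 0.79 ± 0.21 for gamergate GFP against worker GFP, and gamergate Kr-h1 against gamergate GFP gave -0.86 ± 0.19 without passing the threshold (adjusted p = 0.0828). fng, the glycosyltransferase that tunes Notch, was at 10.3, 5.63, 9.55 and 9.14 FPKM in gamergate Kr-h1 and 7.87 to 18.8 FPKM in gamergate GFP brains, against 9.2, 10.4 and 8.86 FPKM in worker GFP brains. bnb, a glial gene in flies, was at 320, 191, 255 and 271 FPKM in gamergate Kr-h1 and 313 to 426 FPKM in gamergate GFP brains, against 184, 249 and 221 FPKM in worker GFP brains. For each of the 3, the adjusted p of gamergate Kr-h1 against worker GFP was 0.567 or more.

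For transporter and gap junction genes the gamergate Kr-h1 means lay between those of gamergate GFP and worker GFP brains, with no call. These genes were among the 12 called in gamergate GFP against worker Kr-h1. They were thus chosen by high gamergate GFP values, and lower gamergate Kr-h1 means follow in part from that choice. Gat-a, a GABA transporter, was at 22.1, 20, 24.5 and 12.8 FPKM in gamergate Kr-h1 and 19.7 to 33.9 FPKM in gamergate GFP brains, against 13.4, 15.2 and 13.3 FPKM in worker GFP brains (log2 difference of gamergate Kr-h1 0.46 ± 0.21, adjusted p = 0.356). Gat-1B, its paralog, was at 191, 176, 212 and 132 FPKM in gamergate Kr-h1 brains, against 113, 148 and 111 FPKM in worker GFP brains (0.51 ± 0.15, adjusted p = 0.166). Eaat-2, a glutamate and taurine transporter, differed by 0.55 ± 0.23 (adjusted p = 0.30). In all 3 gamergate Kr-h1 replicate 8 was the lowest of its group and lay under the highest worker GFP brain. The innexins Inx2 and Inx3, which form gap junctions, differed by 0.47 ± 0.28 and 0.48 ± 0.21. Against worker GFP, gamergate GFP brains gave 0.94 for Gat-a, 0.72 for Gat-1B, 0.82 for Eaat-2, 0.90 for Inx2 and 0.85 for Inx3, and gamergate Kr-h1 against gamergate GFP was called for none of the 5 (adjusted p of 0.21 to 0.52), where 6 genes (0.0636%) were called among all tested. Nmdar1, an NMDA-type glutamate receptor subunit, was at 36.4, 36.1, 38.6 and 28.4 FPKM in gamergate Kr-h1 brains, against 27, 28.7 and 22.7 FPKM in worker GFP brains (0.41 ± 0.13, adjusted p = 0.195).

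**Figure D4:**
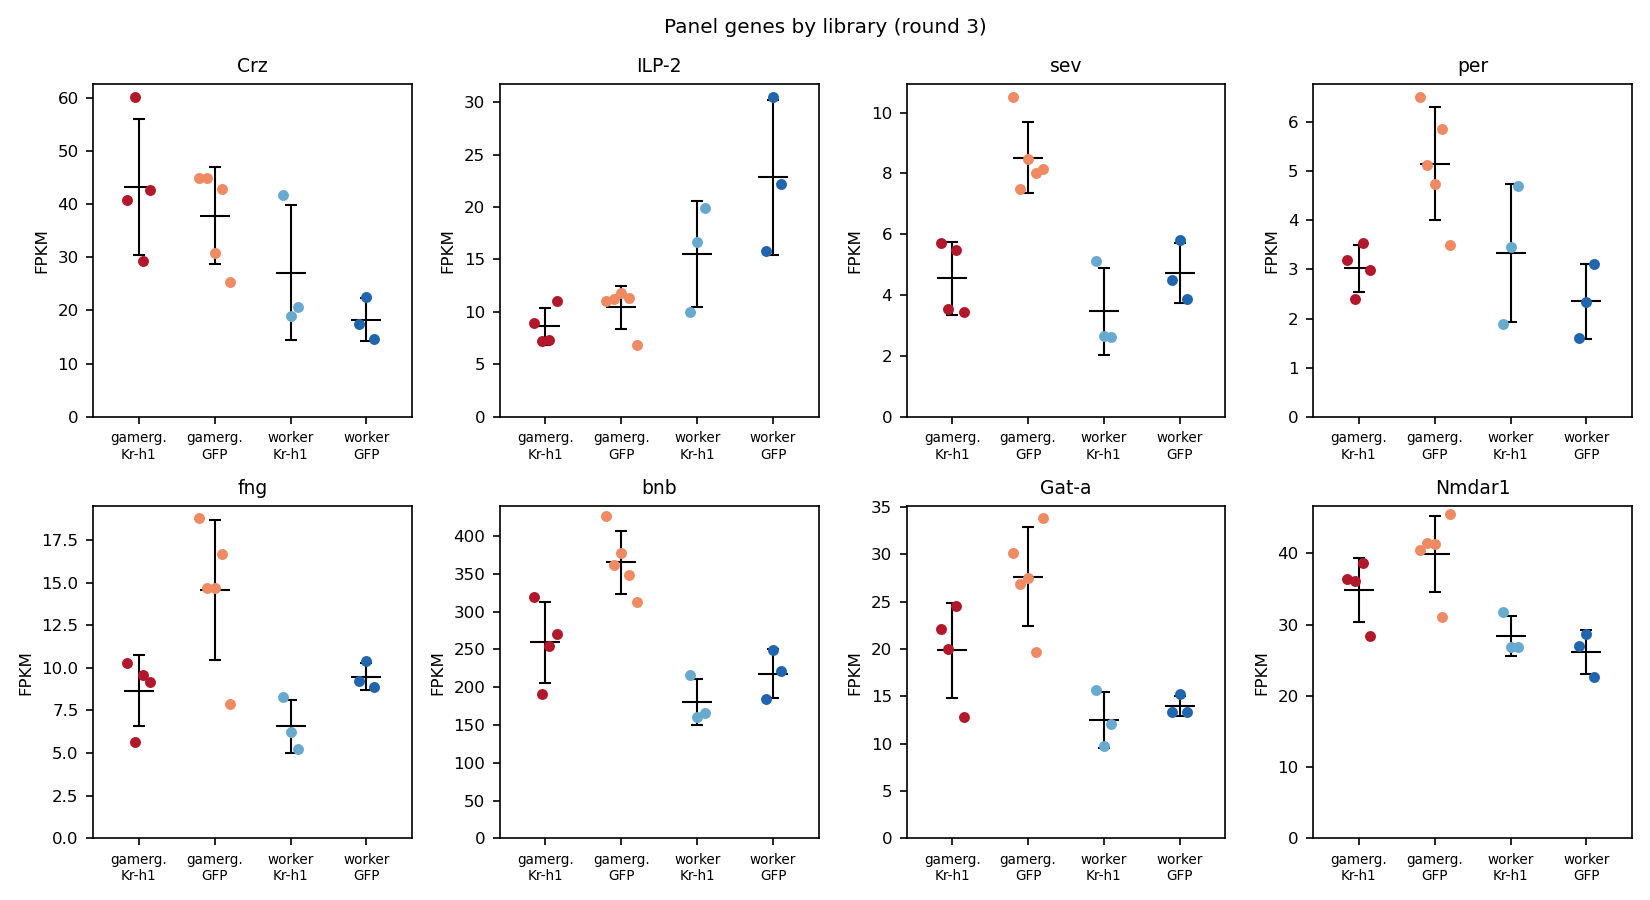
Levels in FPKM of 8 panel genes in each round 3 library, with gamergate Kr-h1, gamergate GFP, worker Kr-h1 and worker GFP brains from left to right; points are brains, long ticks means and bars the SD. For Crz and ILP-2 the gamergate Kr-h1 brains do not overlap the worker GFP brains, whereas for sev all gamergate GFP brains lie at 7.5 FPKM or more and the gamergate Kr-h1 brains at 3.45 to 5.7 FPKM.

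Corazonin and insulin-like peptide genes also differed without overlap from control workers, but missed the threshold. Crz, which encodes corazonin, a peptide known in this species for promoting hunting, was at 40.7, 60.2, 29.3 and 42.7 FPKM in gamergate Kr-h1 brains, against 17.5, 22.6 and 14.6 FPKM in worker GFP brains (log2 difference 1.20 ± 0.29, adjusted p = 0.0982). ILP-2, an insulin-like peptide gene, was at 8.96, 7.2, 7.35 and 11 FPKM in gamergate Kr-h1 brains, against 15.8, 30.5 and 22.2 FPKM in worker GFP brains (-1.32 ± 0.25, adjusted p = 0.0501, and 0.0452 with the replicate block). Neither pair of groups overlapped, and both genes had like values in gamergate GFP brains, with 1.02 for Crz and -1.07 for ILP-2 against worker GFP. Of 17 peptide and peptide receptor genes tested, 6 had a difference above 0 and 1 was called, and the list median was -0.06, against 0.00 over all genes tested. ITP, Ms and NPF, which encode an ion transport peptide, myosuppressin and neuropeptide F and were picked here by their small p, had log2 differences of -0.51, -0.36 and -0.50 with adjusted p of 0.184, 0.196 and 0.228. Of 20 insulin and TOR genes, which include ILP-2, none was called in the main limma fit or by voom. Of them, 1 was higher and 2 were lower at an unadjusted p under 0.05, against 7.19% higher and 6.78% lower of all genes. After quantile scaling, and with the span trend removed, this list and the peptide list each had 1 gene called lower. Among all 9427 genes 11 and 20 were called lower in these fits. InR-2, an insulin receptor gene, differed by -0.12 ± 0.10.

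Genes of hormone response and the clock gave no call by limma or voom. Of 15 juvenile hormone and ecdysone genes tested, 6 lay above and 9 below 0, and 2 were lower at an unadjusted p under 0.05 (6.78% of all genes were). The median was -0.17, or -0.05 without worker GFP replicate 8. By voom, which tested 13 of these genes, it was -0.04, against -0.03 over all genes of that fit. Hr38, an ecdysone-linked nuclear receptor that also marks neuronal activity, was at 53.8, 65.1, 53.4 and 59.1 FPKM in gamergate Kr-h1 brains, against 65.5, 103 and 116 FPKM in worker GFP brains (log2 difference -0.67 ± 0.19, adjusted p = 0.131). E75, an early ecdysone gene, was at 120, 113, 87 and 120 FPKM in gamergate Kr-h1 brains, against 121, 131 and 142 FPKM in worker GFP brains. br and Eip93F, transcription factors of the same hormone cascade, differed by -0.25 ± 0.14 and 0.10 ± 0.12, and usp, the ecdysone receptor partner, by 0.22 ± 0.10. Of the clock genes, per was at 3.19, 2.39, 3.53 and 2.99 FPKM in gamergate Kr-h1 and 3.5 to 6.52 FPKM in gamergate GFP brains, against 1.6, 2.34 and 3.12 FPKM in worker GFP brains. Its log2 difference to worker GFP was 0.33 in gamergate Kr-h1 and 1.00 in gamergate GFP brains. Clk, the activator of per, was at 8.14, 7.28, 8.35 and 7.91 FPKM in gamergate Kr-h1 brains, against 9.68, 10.6 and 8.19 FPKM in worker GFP brains (-0.24 ± 0.10, adjusted p = 0.278), and was 1 of the 2 clock genes of 4 tested that were lower at an unadjusted p under 0.05.

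Large gene families had small median differences and 1 call. Of 51 synaptic and neuronal genes tested, 39 lay above 0, nSyb was the 1 called, and 16 were higher and 1 lower at an unadjusted p under 0.05, where 7.19% of all genes were higher. Their median log2 difference was 0.13, and 0.12 in gamergate GFP against worker GFP. Worker Kr-h1 against worker GFP gave a like median of 0.17. Against worker Kr-h1 the median was -0.01 in gamergate Kr-h1 and -0.01 in gamergate GFP brains, so the rise did not follow caste. nAChRa7 and Syx1A, a nicotinic receptor subunit and the plasma membrane syntaxin of release sites, differed by 0.39 ± 0.08 and 0.30 ± 0.08 (adjusted p = 0.0663 and 0.132). Without worker GFP replicate 8 the count of higher genes was 6 and nSyb was not called. The count of higher genes among all tested went from 678 to 482 on leaving out that library. Of 50 oxidative phosphorylation genes, 42 lay above 0 and 14 were higher at an unadjusted p under 0.05. Their median was 0.12, against -0.01 in gamergate GFP against worker GFP. The count of 14 was 8 without worker GFP replicate 8, where 482 of all 9389 genes were higher. It was 9 without gamergate Kr-h1 replicate 6, where 615 of all 9405 genes were higher. ATPsyngamma, a subunit of ATP synthase, averaged 148 ± 10.9 FPKM in gamergate Kr-h1 and 116 ± 6.53 FPKM in worker GFP brains (0.34 ± 0.08, adjusted p = 0.0841).

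Of 57 cytosolic ribosomal protein genes, 53 lay below 0 in gamergate Kr-h1 against worker GFP, with a median of -0.15. In gamergate GFP against worker GFP the median was -0.27. None was called by limma or by voom, and 11 were lower at an unadjusted p under 0.05, or 15 by voom and 24 after quantile scaling. Over all genes tested, 639 of 9427 were lower at that threshold, or 756 of 9232 by voom and 633 of 9427 after quantile scaling. RpL31, a protein of the large subunit, averaged 77.6 ± 7.70 FPKM in gamergate Kr-h1 and 105 ± 5.22 FPKM in worker GFP brains (log2 difference -0.43 ± 0.12, adjusted p = 0.131). RpL29, another protein of that subunit, was at 31, 37.2, 23.8 and 32.1 FPKM in gamergate Kr-h1 brains, against 28.8, 28.8 and 30.4 FPKM in worker GFP brains. The 70 mitochondrial ribosomal protein genes had a median of 0.07, against -0.13 in gamergate GFP against worker GFP. Of these, 4 were higher and 1 lower at an unadjusted p under 0.05, against 7.19% higher and 6.78% lower of all genes.

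**Figure D5:**
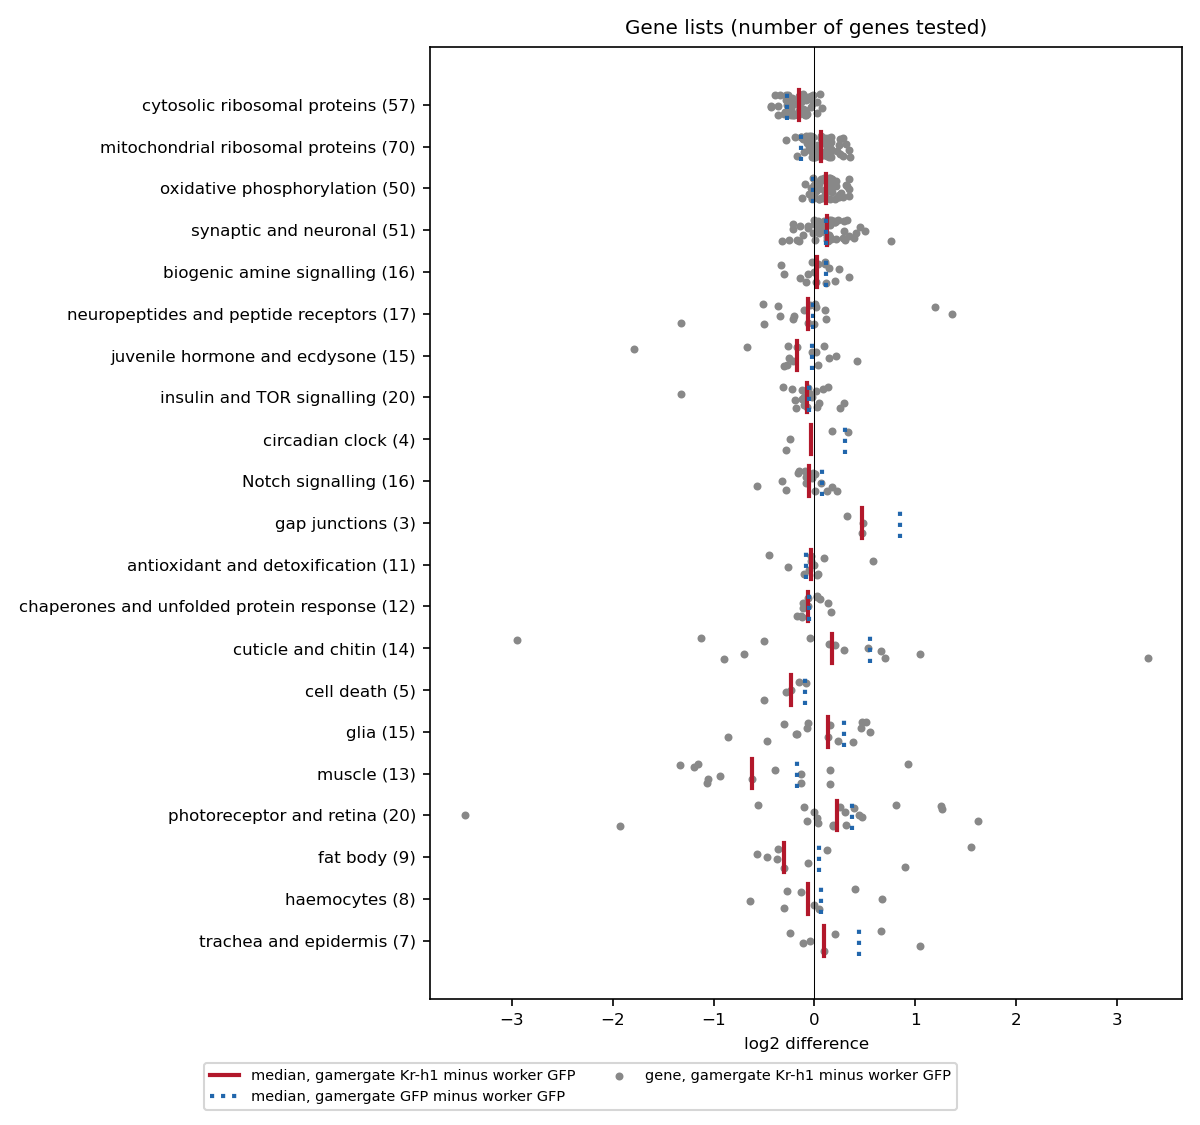
Log2 differences between gamergate Kr-h1 and worker GFP brains for the members of each gene list (grey points, with the number tested in brackets), with the list median for gamergate Kr-h1 (red line) and for gamergate GFP (dotted blue line) against the same worker GFP brains. Of the cytosolic ribosomal protein genes 53 of 57 lie below 0 and of the oxidative phosphorylation genes 42 of 50 above it, with none called by limma or voom, and the muscle median is at -0.62.

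Marker genes of muscle, fat body and glia gave no call by limma or voom. Of 13 muscle genes, 10 lay below 0 and 8 were lower at an unadjusted p under 0.05, where 6.78% of all genes were. Their median log2 difference was -0.62, and none was called by limma or voom. Mhc, the muscle myosin heavy chain, averaged 3.41 ± 0.733 FPKM in gamergate Kr-h1 and 9.23 ± 5.69 FPKM in worker GFP brains (adjusted p = 0.0985). Without worker GFP replicate 8, the library with the highest muscle sum, 5 muscle genes were lower at an unadjusted p under 0.05. Their median was then -0.47, and 526 of all 9389 genes tested were lower at that threshold. In gamergate GFP against worker Kr-h1 the muscle median was 0.29, of the opposite sign. Of 9 fat body genes 6 lay below 0, with a median of -0.30, or -0.07 by voom, which tested 7 of them. The summed level of fat body markers was 1650 to 2260 FPKM in gamergate Kr-h1, 1740 to 3060 FPKM in gamergate GFP and 2360 to 3060 FPKM in worker GFP brains. Most of this sum was Tsf1, as the sum averaged 1900 FPKM in gamergate Kr-h1 and 2600 FPKM in worker GFP brains. Tsf1, a transferrin, averaged 1610 ± 231 FPKM in gamergate Kr-h1 and 2230 ± 392 FPKM in worker GFP brains (adjusted p = 0.291), and apolpp, the apolipophorin precursor, 142 ± 10.0 FPKM in gamergate Kr-h1 and 175 ± 13.3 FPKM in worker GFP brains (adjusted p = 0.286). Glia markers summed to 1140 to 1440 FPKM in gamergate Kr-h1, 1380 to 1680 FPKM in gamergate GFP and 1090 to 1270 FPKM in worker GFP brains, and the pan-glial factor repo was at 26.4, 24.3, 22.3 and 30.1 FPKM in gamergate Kr-h1 brains, against 30.9, 28.5 and 36.1 FPKM in worker GFP brains. The part of such tissues in the results above was not tested.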

How the data were processed

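Strand-specific libraries of polyadenylated RNA, 1 per central brain, gave the deposited table of FPKM for 14001 genes, which the authors computed. Tools named in the submitters' processing notes, without versions, were STAR, featureCounts, DESeq2 and bcl2fastq. Genome build, annotation and strand setting were not given in the sources used here, and antisense or near-identical genes may share reads. Symbols came from the RefSeq table of assembly Hsal_v8.6 (13989 identifiers matched, 12 did not). Groups and replicate numbers came from the titles, and round and run from the description labels. The 4 gamergate Kr-h1 and 3 worker GFP libraries of round 3 were compared in 1 limma fit (3.58.1, R 4.3.3) of 4 group means over all 15 round 3 libraries, on log2(FPKM + 0.5), for the 9427 genes that reached 1 FPKM in 3 or more of them, with an eBayes trend. Folds of low genes are understated on this scale. Kr-h1 did not pass that filter, and exact permutation was used for it. The p from the doubled tail, which the design implied, was adopted after the p from absolute differences had been seen, so both are given.

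Whole reads were recovered from the FPKM steps of 12497 of 12692 detected genes (98.5%, tolerance 0.02 reads). Libraries were separate brains. Same-numbered gamergate Kr-h1 and worker GFP libraries had deviations from their group means that correlated at 0.164, 0.223 and 0.183. Pairs with unlike numbers correlated between -0.334 and 0.434, with the highest for gamergate Kr-h1 replicate 5 and worker GFP replicate 8. Gamergate Kr-h1 replicate 7 and worker GFP replicate 6 correlated at 0.207. These values do not settle whether the numbers pair the samples. The main fit held no replicate term, and the replicate block is given as an alternative. Named genes were the called genes with a symbol (at most 10 in each direction), Kr-h1 and a panel of 42 symbols, of which 37 were found; 1 called gene with a symbol is not reported here, and 7 without one only by range. The members, panel and lists were chosen with earlier results of these data known, and list members were found by symbol. The fit was tested on simulated data. Alternatives covered pseudocount, filter, scaling, libraries, variance model, array weights, gene span, a replicate block and each library left out, and, added after seeing the data, voom on recovered reads, LOC112588745 as a covariate, another two-sided p and the lists without 2 libraries.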

Additional observations from a re-analysis of the deposited data

Results flagged for a closer look

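In 5 of the 120 groups of named genes checked, 1 brain lay far from the others of its group, and chance flags about 1 in 20 groups. The 5 were gamergate GFP replicate 9 for Mob2 at 45.6 FPKM (others 37.1 to 38.8) and for ILP-2 at 6.85 FPKM (others 11 to 11.8), gamergate GFP replicate 6 for E75 at 138 FPKM, gamergate GFP replicate 5 for RpL29 at 27.5 FPKM, and gamergate Kr-h1 replicate 8 for CPR1 at 1.49 FPKM, where the other gamergate Kr-h1 brains had 0.836 to 0.857 FPKM. Of these, the CPR1 value belongs to the comparison with worker GFP brains, and it still lay under the lowest worker GFP brain at 6.72 FPKM.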

How the results depend on the processing

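The count of 23 called genes was 58 with a filter of at least 5 FPKM, 51 with array weights, 48 with the replicate block, 46 with the span trend removed and 63 with LOC112588745 as a covariate. It was 10 with all 32 libraries and an additive batch, 9 without the trend, and 1 with only the 7 libraries or with all 32 libraries by group and round. Leaving out 1 library gave 1 to 50, with counts of 8, 9 and 50 on leaving out gamergate GFP replicate 5, 7 and 9, one at a time, and 11 on leaving out worker Kr-h1 replicate 6. The 4 genes also called in gamergate GFP against worker Kr-h1 became 7 with a pseudocount of 0.1, 12 with the stricter filter, 0 with all 32 libraries by group and round, 2 without the trend, 14 with array weights, 12 with the span trend removed, 14 with the replicate block and 20 with the covariate, and 0 to 13 with 1 library left out. The cause of these moves was not tested. The distance to worker controls ran from -0.034 to 0.002 with 1 library left out, and the position on round 2 caste genes from -0.15 to -0.01. Kr-h1 in gamergate Kr-h1 against gamergate GFP ranged from -0.42 to -0.25, with exact permutation p of 0.0357 to 0.107, and at -0.32 missed the threshold by absolute differences (p = 0.0556). Among the 23 genes, 426 of 702 pairs of gene and alternative were still called, 276 were not and 0 reversed. Beside the 4 lost genes and ILP-2 named above, the replicate block changed no call among the named genes. CCHa1 lost its call with only the 7 libraries (adjusted p = 0.0655) and with all 32 libraries by group and round (adjusted p = 0.0597). ILP-2, Rh5 and Crz were called in some alternatives. At 4.75 M to 10.84 M recovered reads per library, Kr-h1 rests on 17 to 20 reads in gamergate Kr-h1 and 22 to 52 reads in worker GFP libraries.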
